A study of Mus musculus with 25 samples.

Results

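The change in RNA levels between the metaphase II (MII) oocyte and the 2-cell embryo was described in mouse cells cultured with the agent that the labels write as VCD. VCD 2-cell embryos (n = 4 libraries) were compared with VCD MII oocytes (n = 5 libraries), which makes 9 of the 25 libraries of the study. PBS 2-cell embryos (n = 4) and PBS MII oocytes (n = 4), cultured with phosphate-buffered saline as the control, were used only to ask whether the change differed between the agents. All were of strain C57BL/6, and libraries were made with Smart-seq2, which copies whole transcripts from as little as a single cell. Oocytes taken at the germinal vesicle stage were matured in M16 medium for 16 h and were called MII by their first polar body. Embryos came from 6 h of fertilization followed by culture in G1 medium, and were scored as 2-cell 24 h later. The agent was added to the media. The full name and dose of VCD, the number of oocytes or embryos in a library and whether libraries of a group came from separate cultures are not stated in the labels. A p-value therefore reflects the variation among these libraries, which may be technical.

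The oocytes and the embryos were deposited as 2 separate tables, which are separate runs, so stage and table cannot be told apart in this comparison. Values are FPKM, fragments per kilobase of transcript scaled to the library's read total, as the authors deposited them. The tables were joined on the Ensembl gene identifier, and a gene absent from a table was set to 0 there. The oocytes were given for 25158 genes and the embryos for 34228, with 23825 in both. The embryo table holds none of the 522 oocyte identifiers that are higher than its own highest one, which are newer entries of the annotation. The steps between low FPKM values corresponded to 15075832 to 20787456 reads in the VCD 2-cell libraries and to 16382925 to 20055010 reads in the VCD MII libraries. Genes were tested where at least 4 of the 9 libraries reached 1 FPKM, which left 10854 genes. FPKM states a gene's part of its own library, so that total RNA per cell and the number of cells in a library cannot be told apart from it.

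A mouse oocyte stops transcription before it matures and carries stored maternal RNA through meiosis. After fertilization, maternal RNA is degraded in waves, and the embryo starts its own transcription, with the main burst at the 2-cell stage in the mouse. That burst includes gene families active for a short time only, among them Zscan4, Usp17l, Tdpoz and Zfp352, some of which are transcribed together with endogenous retroviral elements.

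Promoter windows reach from 250 bases before to 50 bases after a gene's start and were taken from RefSeq on GRCm38.p6. They are shown 5′ to 3′ on the gene's strand for 7 genes whose RNA differed most or that open a group described below. Capitals mark, on either strand, TAATCC in Zfp352 and AF067061, TATAAA and CCAAT in Zscan4d and Usp17lb, CACGTG in Zp3, GGGCGG in Leprot, and GGGCGG and CACGTG in Nop2. The first 4 genes were higher in VCD 2-cell embryos, Zp3 and Leprot were lower, and Nop2 was higher:
Zfp352 (chr4:90218570-90218869, plus strand): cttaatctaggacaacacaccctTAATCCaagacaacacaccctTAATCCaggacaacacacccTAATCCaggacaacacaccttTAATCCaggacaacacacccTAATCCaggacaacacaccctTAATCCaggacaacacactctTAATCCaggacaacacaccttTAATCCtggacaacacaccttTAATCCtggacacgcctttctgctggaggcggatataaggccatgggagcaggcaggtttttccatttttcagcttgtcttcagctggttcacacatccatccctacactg
AF067061 (chr13:120262845-120263144, plus strand): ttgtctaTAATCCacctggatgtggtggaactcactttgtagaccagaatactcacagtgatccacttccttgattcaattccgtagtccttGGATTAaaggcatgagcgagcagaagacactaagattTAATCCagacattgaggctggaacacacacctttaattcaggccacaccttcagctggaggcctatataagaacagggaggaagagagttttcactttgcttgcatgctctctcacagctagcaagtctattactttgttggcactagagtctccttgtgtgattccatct
Zscan4d (chr7:11166099-11166398, minus strand): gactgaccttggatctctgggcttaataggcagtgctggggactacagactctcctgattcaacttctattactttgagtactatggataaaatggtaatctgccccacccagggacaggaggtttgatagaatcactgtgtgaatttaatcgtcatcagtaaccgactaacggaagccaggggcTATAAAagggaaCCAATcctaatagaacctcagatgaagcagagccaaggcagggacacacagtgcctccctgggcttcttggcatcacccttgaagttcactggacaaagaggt
Usp17lb (chr7:104842534-104842833, minus strand): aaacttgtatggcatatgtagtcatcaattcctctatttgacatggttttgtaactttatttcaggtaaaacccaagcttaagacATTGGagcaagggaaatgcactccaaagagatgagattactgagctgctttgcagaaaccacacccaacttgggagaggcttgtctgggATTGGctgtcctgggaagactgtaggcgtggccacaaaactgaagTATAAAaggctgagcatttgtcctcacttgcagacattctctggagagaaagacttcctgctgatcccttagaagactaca
Zp3 (chr5:135979855-135980154, plus strand): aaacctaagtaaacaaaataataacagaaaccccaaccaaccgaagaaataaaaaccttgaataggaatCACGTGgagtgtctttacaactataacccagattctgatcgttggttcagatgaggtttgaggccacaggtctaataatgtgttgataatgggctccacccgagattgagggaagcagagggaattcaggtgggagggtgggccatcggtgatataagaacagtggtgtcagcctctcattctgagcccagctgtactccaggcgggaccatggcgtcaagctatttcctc
Leprot (chr4:101647533-101647832, plus strand): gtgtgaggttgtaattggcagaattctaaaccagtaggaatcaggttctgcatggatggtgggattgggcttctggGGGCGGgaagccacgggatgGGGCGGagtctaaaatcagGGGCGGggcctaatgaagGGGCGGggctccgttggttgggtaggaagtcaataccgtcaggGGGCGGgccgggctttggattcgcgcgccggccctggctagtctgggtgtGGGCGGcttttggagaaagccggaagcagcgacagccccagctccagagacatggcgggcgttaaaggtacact
Nop2 (chr6:125131633-125131932, plus strand): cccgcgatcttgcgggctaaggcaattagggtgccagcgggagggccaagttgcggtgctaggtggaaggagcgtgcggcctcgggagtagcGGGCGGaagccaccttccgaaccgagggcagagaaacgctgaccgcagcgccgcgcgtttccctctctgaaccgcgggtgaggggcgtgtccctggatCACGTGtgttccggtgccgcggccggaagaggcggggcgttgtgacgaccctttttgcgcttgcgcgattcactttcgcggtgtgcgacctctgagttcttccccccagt

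The Zfp352 window held 9 copies of TAATCC on the gene's strand, 20 or 21 bases apart, between positions -227 and -61. Of 32851 windows searched it had the most copies, and the next window had 4. At least 1 copy stood in 7.06% of all windows and in 6.13% of the windows of all tested genes. The share was 8.4% for genes at least 2-fold higher in VCD 2-cell embryos and 5.45% for genes at least 2-fold lower. Leprot held 6 copies of GGGCGG between positions -174 and -24, a sequence found in 62.4% of windows of genes at least 2-fold lower and in 58.9% of windows of all tested genes. A match is a description of these letters and not of a bound factor.

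More genes were higher than lower in VCD 2-cell embryos. Of 10854 genes tested with limma, 5738 (52.9%) were higher and 2671 (24.6%) were lower in VCD 2-cell embryos than in VCD MII oocytes at an adjusted p below 0.05. With a change of at least 2-fold on the log2(FPKM + 1) scale as well, 3529 genes (32.5%) were higher and 1335 (12.3%) lower. These 2-fold calls are the ones meant by "called" below. Of the 1335, 56 are identifiers newer than the embryo table, set to 0 there and not described as fallen, which leaves 1279 lower genes. Of the genes called higher, 346 were at 0 in every VCD MII library, as measured or because the oocyte table does not list them. Among the 10510 tested genes listed in both tables, 3241 were called higher and 1279 lower. The groups did not overlap in 5081 higher and 2323 lower genes.

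The balance of these counts depends on how libraries are scaled to each other. As deposited, the median log2 change of all tested genes was 0.47 and 68.2% of the genes that passed were higher. After median-of-ratios scaling the median was -0.0084 and 49.5% were higher, with 2331 genes called higher and 2182 lower. After quantile normalization the median was -0.13 and 44.4% were higher, with 2130 called higher and 2389 lower. Changes below are as deposited and stand beside that median of 0.47, and groups whose direction turns under another scaling are named.

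The filter admits a gene through a single stage. VCD MII libraries were all below 1 FPKM for 1743 tested genes, of which 1527 were called higher. VCD 2-cell libraries were all below 1 FPKM for 344, of which 202 were called lower. Such genes had to differ to be tested. The other 8767 genes reached 1 FPKM in libraries of both stages, and 2002 of them were called higher and 1133 lower.

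**Figure D1:**
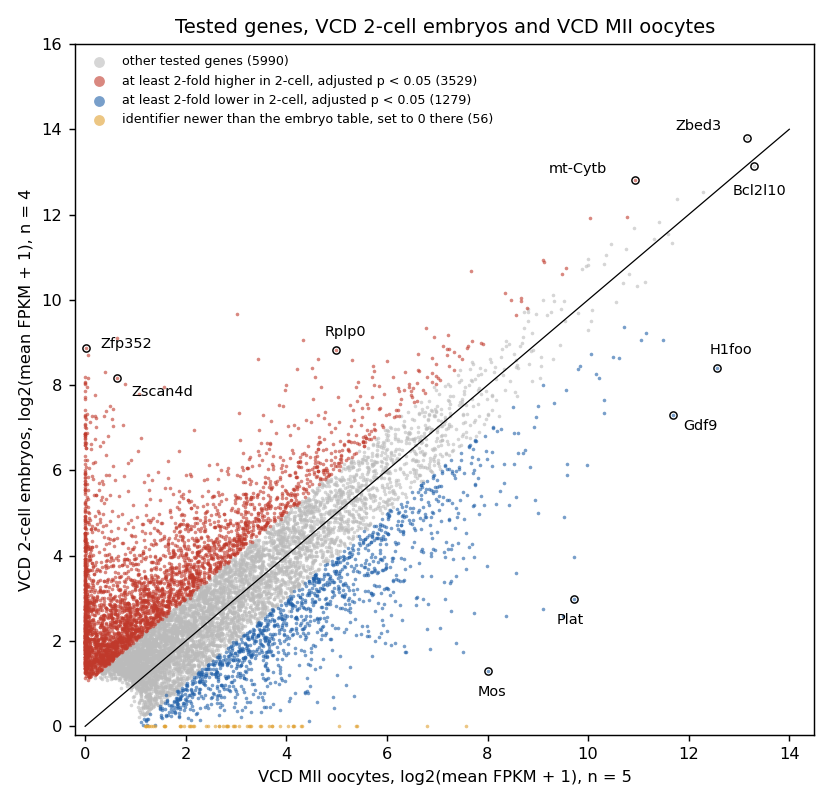
Mean level of each tested gene in VCD 2-cell embryos (vertical, n = 4) against VCD MII oocytes (horizontal, n = 5), both as log2(mean FPKM + 1), with the line of equal levels. Red points are the 3529 genes called higher, blue points 1279 called lower, and orange points the 56 whose identifier is newer than the embryo table. Zfp352 and Zscan4d lie at the upper left, and Plat and Mos at the lower right.

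Genes called higher took a large part of the embryo's RNA. They held 32.9% to 37.6% of the summed FPKM in VCD 2-cell libraries and 9.62% to 9.83% in VCD MII libraries. Genes called lower held 5.64% to 6.75% in VCD 2-cell libraries and 30.5% to 32.0% in VCD MII libraries. The same genes in the PBS libraries, which did not enter these calls, held 35.6% to 36.8% in 2-cell embryos against 9.34% to 9.75% in MII oocytes (called higher) and 5.35% to 6.11% against 30.9% to 31.7% (called lower). With values as deposited, genes called lower were more frequent among abundant transcripts. Of genes with a mean of 100 FPKM or more, 23.6% were called higher and 24.0% lower, and of genes under 2 FPKM 36.1% were called higher and 4.16% lower. The median log2 change of all tested genes was 0.078 at 100 FPKM or more and 0.65 under 2 FPKM. The cause of this trend with level was not tested.

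**Figure D2:**
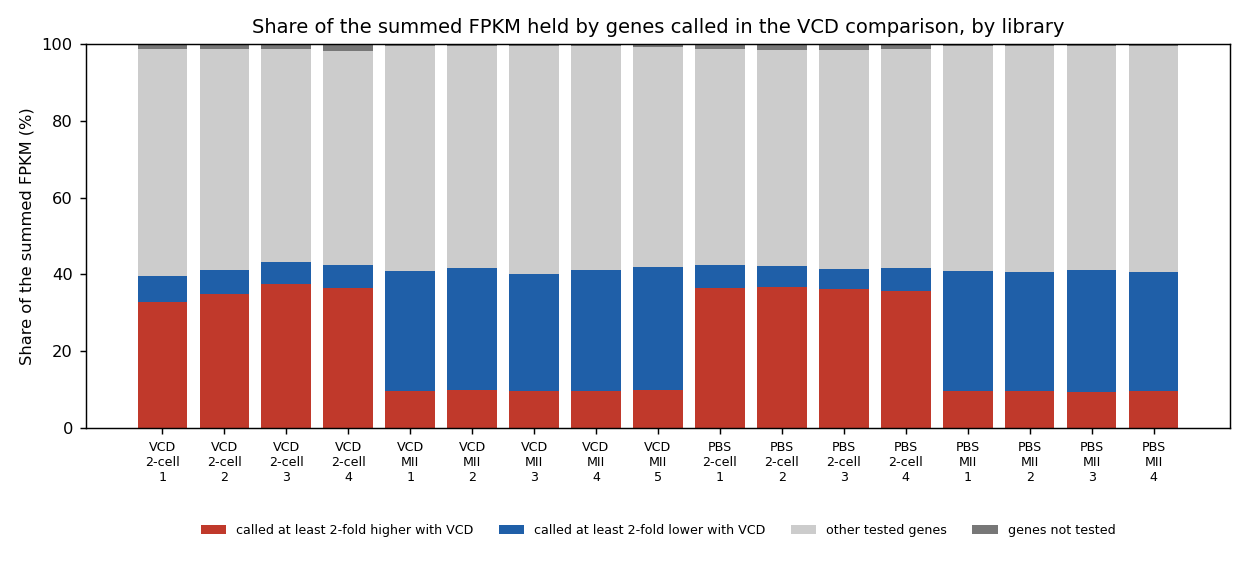
Share of the summed FPKM (percent, vertical axis) held in each library by genes called higher (red) or lower (blue) in the VCD comparison, by other tested genes (light grey) and by genes not tested (dark grey). In all 4 VCD 2-cell libraries the red part exceeds 32%, and in all 5 VCD MII libraries the blue part exceeds 30%. The PBS libraries beside them show the same genes.

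The most abundant transcripts were largely shared by both stages. Zbed3, whose protein belongs to the subcortical maternal complex, averaged 14314 ± 2278 FPKM in VCD 2-cell embryos and 9187 ± 520 in VCD MII oocytes (SD, n = 4 and 5). Bcl2l10, an oocyte-rich member of the Bcl-2 family, averaged 9060 and 10089 FPKM and did not pass the test (adjusted p = 0.184), though it passed as lower at -0.70 after median-of-ratios scaling. Btg4, an adaptor that recruits the CCR4-NOT deadenylase to maternal RNA, averaged 5268 FPKM in VCD 2-cell embryos and 3489 in VCD MII oocytes. The differences of Zbed3 (0.63) and Btg4 (0.59) were 0.087 and 0.050 after median-of-ratios scaling and then did not pass. Some oocyte transcripts left the top ranks. H1foo, the oocyte linker histone, was at rank 121 with 337 FPKM in VCD 2-cell embryos and at rank 3 with 6014 in VCD MII oocytes. Gdf9, an oocyte growth factor that acts on cumulus cells, was at rank 295 with 156 FPKM in VCD 2-cell embryos and at rank 6 with 3281 in VCD MII oocytes.

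Genes known for transcription at the 2-cell stage were among the largest increases. The genes with the largest increases and decreases were picked among called genes whose stages did not overlap. Their lack of overlap and their passing the test therefore follow from that choice. Zfp352, a zinc finger gene, had 368, 562, 591 and 334 FPKM in VCD 2-cell embryos, against 0, 0, 0, 0 and 0.0536 FPKM in VCD MII oocytes. Every embryo library was high and every oocyte library was at or next to 0, a log2 difference of 8.80 (SE 0.17, adjusted p = 2.19e-12) on the log2(FPKM + 1) scale. Zscan4d, whose family acts on telomeres in embryonic stem cells, had 272, 356, 326 and 188 FPKM in VCD 2-cell embryos, against 0.834, 0.588, 0.613, 0.423 and 0.295 FPKM in VCD MII oocytes. The groups did not overlap, with a log2 difference of 7.50 (SE 0.18, adjusted p = 8.73e-12). Of the 50-base words of Zscan4d, 49.6% also stand in other transcripts, so its reads can come from other Zscan4 copies.

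Obox6, an oocyte and embryo homeobox gene, had 99.0, 171, 210 and 137 FPKM in VCD 2-cell embryos, against 0.26, 0.115, 0.045, 0.0752 and 0 FPKM in VCD MII oocytes. The lowest embryo library stood far above the highest oocyte library (log2 difference 7.09, SE 0.19). Usp17lb, of a family of deubiquitinating enzymes, had 125, 163, 199 and 113 FPKM in VCD 2-cell embryos, against 0.0958, 0.132, 0.0388, 0.13 and 0.391 FPKM in VCD MII oocytes (log2 difference 7.0, SE 0.17). AF067061 had 88.0, 112, 110 and 116 FPKM in VCD 2-cell embryos and was listed at 0 in all 5 VCD MII libraries. Neither gene overlapped between the stages.

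The other genes with the largest increases by the same rule were AA623943 (log2 difference 7.27), AA414992 (7.0), Trim43b (6.93), Guca1a (6.70), Rfpl4b (6.58), Trim43a (6.54), Pramef25 (6.53), Bex6 (6.45), Tmem92 (6.35) and Zscan4c (6.34). All had adjusted p-values of 2.05e-09 or lower, and the lack of overlap between the stages was a condition of the rule. AA414992, Guca1a and Trim43a were at 0 in every VCD MII library. For AA414992 and Guca1a this value is also the one given to genes that the oocyte table does not list. Trim43a is listed there, with reads in PBS MII replicates 2 and 4. Trim43a and Trim43b are tripartite-motif genes, and Guca1a encodes a calcium-binding activator of guanylate cyclase known from the retina. Zscan4c varied most among them, with 83.2, 137, 128 and 38.9 FPKM in VCD 2-cell embryos, against 0.0219, 0.113, 0.106, 0.0666 and 0.107 FPKM in VCD MII oocytes. Its 4th embryo library was the lowest, as for Zscan4d. Pramef25, Trim43a, Trim43b and Zscan4c share 45.9% to 85.5% of their 50-base words with other transcripts and are uncertain as single genes. The embryo values of Guca1a and Bex6 did not fall on whole reads at the annotated length, as described under processing. Those of Bex6 in MII oocytes did not either, and Guca1a was at 0 in every MII library.

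Of 40 genes listed as 2-cell stage genes, 37 are in the tables and 34 passed the filter on low values. Of these 34, 33 were called higher and none lower, where 32.5% of all tested genes were called higher. In 28 of the 34 every VCD MII library was below 1 FPKM, so those could pass only through the embryos and the count is a description. The median log2 difference was 4.97, and 31 or more of the 34 were called higher under each scaling tried. The weakest of the 33 were Tcstv1, with 137, 147, 138 and 208 FPKM in VCD 2-cell embryos against 54.1, 70.4, 57.4, 61.6 and 67.8 FPKM in VCD MII oocytes, and Zfp809, a repressor of retroviral elements, at a log2 difference of 1.35. Dppa2 and Dppa4, which act together upstream of the 2-cell program in embryonic stem cells, differed in starting level: Dppa2 averaged 114 FPKM in VCD 2-cell embryos and 36.4 in VCD MII oocytes, and Dppa4 averaged 28 and 0.222. The embryo values of both did not match the annotated length. Sp110 alone did not pass, at 24.3 FPKM in VCD 2-cell embryos and 22.5 in VCD MII oocytes, and its difference of 0.11 turned to -0.41 (adjusted p = 0.0242) after median-of-ratios scaling. The summed FPKM of the list was 2332, 3250, 3380 and 2252 in VCD 2-cell embryos, against 133.7 to 169.6 in VCD MII oocytes. Replicates 2 and 3 of the embryos were the higher pair.

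Plat, Mos, Astl and Bub1b were among the genes with the largest decreases. Plat, tissue plasminogen activator, had 6.89, 7.75, 6.06 and 7.07 FPKM in VCD 2-cell embryos, against 808, 784, 880, 853 and 907 FPKM in VCD MII oocytes. All 4 embryo libraries were low and within a narrow range (log2 difference -6.74, SE 0.10, adjusted p = 3.75e-13). Mos, the kinase that holds the oocyte at metaphase II, had 1.83, 0.863, 0.916 and 2.18 FPKM in VCD 2-cell embryos, against 145, 264, 239, 255 and 384 FPKM in VCD MII oocytes. It fell in every embryo library, and its oocyte libraries spread widely, with replicate 1 lowest (log2 difference -6.70, SE 0.25, adjusted p = 3.01e-10). Astl, the ovastacin protease that hardens the zona after fertilization, had 5.62, 5.26, 4.89 and 7.21 FPKM in VCD 2-cell embryos, against 487, 615, 462, 531 and 651 FPKM in VCD MII oocytes (log2 difference -6.35, SE 0.14). Bub1b, a spindle checkpoint kinase, had 3.83, 6.41, 4.87 and 4.97 FPKM in VCD 2-cell embryos, against 298, 332, 339, 382 and 286 FPKM in VCD MII oocytes (log2 difference -5.78, SE 0.14). Neither gene overlapped between the stages.

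The other genes with the largest decreases were Leprot (log2 difference -5.78), Txnip (-5.75), Zdhhc24 (-5.43), Saraf (-5.08), March7 (-5.06), Fbxl6 (-4.98), Elovl5 (-4.78), Tmem30b (-4.64), Smg8 (-4.61), Camsap3 (-4.60) and Lbr (-4.58). Each had an adjusted p of 3.76e-10 or lower, and stages without overlap were again a condition of the choice. They have diverse known roles. Txnip binds and inhibits thioredoxin, Saraf limits calcium entry from outside the cell, and Elovl5 lengthens fatty acids. March7 is a ubiquitin ligase, Smg8 takes part in nonsense-mediated decay, Camsap3 binds microtubule minus ends, and Lbr anchors the nuclear lamina. Txnip had 15.6, 13.4, 13 and 16.5 FPKM in VCD 2-cell embryos, against 696, 847, 967, 822 and 861 FPKM in VCD MII oocytes. Leprot had 2.41, 2.31, 1.43 and 3.27 FPKM in VCD 2-cell embryos, against 141, 189, 203, 169 and 206 FPKM in VCD MII oocytes. Txnip shares 15.7% of its 50-base words with other transcripts, and Fbxl6 values matched the annotated length in neither stage.

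**Figure D3:**
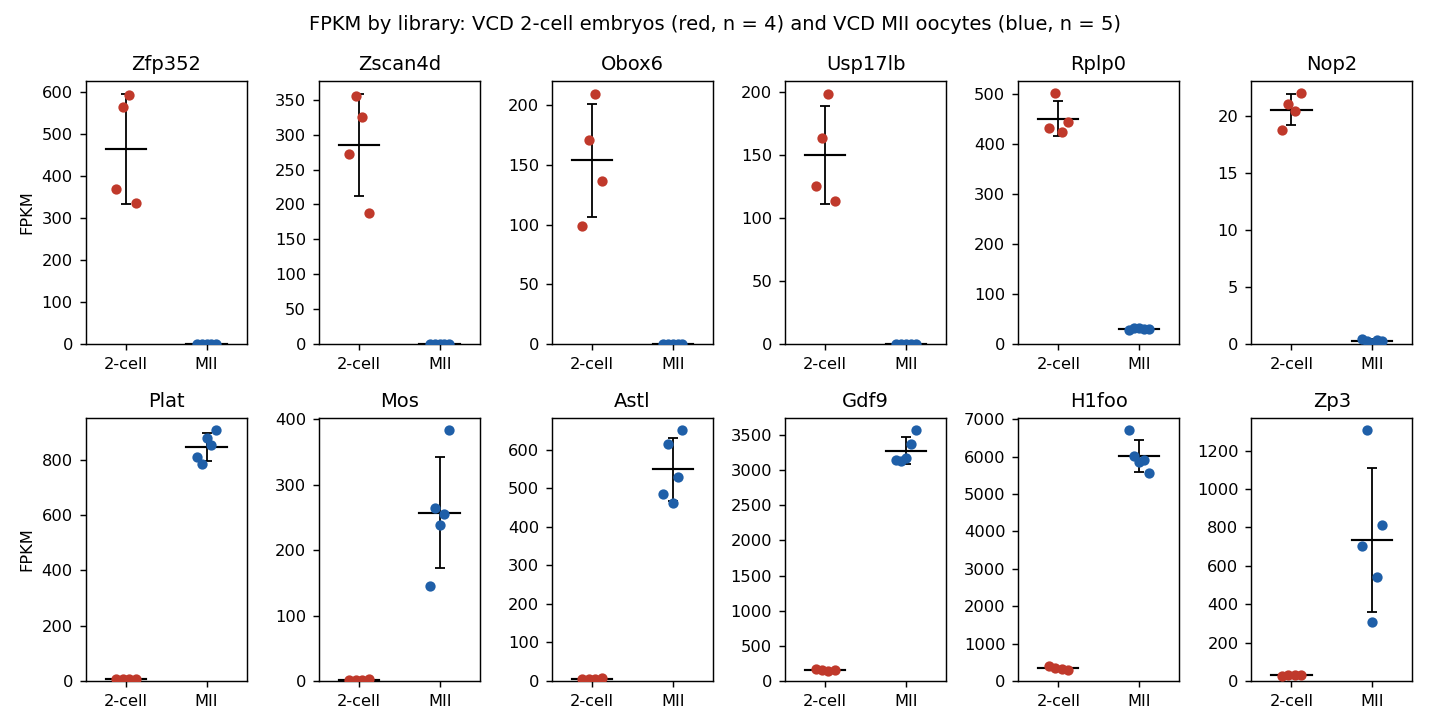
FPKM of 12 genes in each VCD 2-cell library (red, left, n = 4) and each VCD MII library (blue, right, n = 5), with the mean and SD as bars and every vertical axis starting at 0. No gene shown overlaps between the stages, which was a condition for those picked as largest increases and decreases. Of the 6 genes higher in MII oocytes, Zp3 and Mos spread most among the MII libraries.

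Counts for gene lists are given as deposited and are read against all tested genes, of which 52.9% passed as higher and 24.6% as lower and 32.5% and 12.3% were called. Among 13 oocyte-secreted and zona genes tested, 1 passed as higher and 6 as lower, with 1 and 5 called at 2-fold, and the list's median log2 difference was -0.30. The zona pellucida genes Zp1, Zp2 and Zp3, which encode the egg coat, were called lower. Zp3 had 24.9, 31.1, 28.7 and 32.2 FPKM in VCD 2-cell embryos, against 701, 1307, 305, 543 and 815 FPKM in VCD MII oocytes (log2 difference -4.45, SE 0.32). MII replicate 3 was the lowest and replicate 2 the highest, and the same replicates were lowest and highest for Zp1 and Zp2. Zp2 had 67.6, 77.3, 68.8 and 51.6 FPKM in VCD 2-cell embryos, against 427, 914, 76.9, 324 and 557 FPKM in VCD MII oocytes, so MII replicate 3 lay within the embryo range. Gdf9 had 167, 154, 142 and 161 FPKM in VCD 2-cell embryos, against 3148, 3134, 3177, 3369 and 3577 FPKM in VCD MII oocytes (log2 difference -4.38, SE 0.09). Its partner Bmp15 averaged 1562 FPKM in VCD 2-cell embryos and 1789 in VCD MII oocytes and did not pass as deposited, but passed as lower under the 3 other scalings (-0.74 to -0.33). Bmp6 alone was called higher, at 7.13 FPKM in VCD 2-cell embryos and 1.95 in VCD MII oocytes. Its embryo values did not match the annotated length.

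Oocyte transcription factors moved both ways, with 5 of 11 passing as higher and 4 as lower. Lhx8, a homeobox factor of the primordial oocyte, had 93.3, 91.5, 76.0 and 90.2 FPKM in VCD 2-cell embryos, against 23.1, 26.7, 20.4, 30.4 and 27.7 FPKM in VCD MII oocytes. Its embryo libraries were all higher (log2 difference 1.74, SE 0.13). Obox2 had 49.6, 26.6, 25.2 and 41.2 FPKM in VCD 2-cell embryos, against 208, 374, 346, 319 and 462 FPKM in VCD MII oocytes, and 65.1% of its 50-base words stand in other transcripts. Sohlh2, needed for oocyte differentiation, averaged 10.5 FPKM in VCD 2-cell embryos and 25.9 in VCD MII oocytes. Nobox, a factor of early folliculogenesis, averaged 46.3 FPKM in VCD 2-cell embryos and 41.0 in VCD MII oocytes and did not pass, with a sign that turned under other scalings.

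Genes of MII arrest and M-phase kinases (29 tested) split into 10 higher and 13 lower, 7 and 5 of them called, with a median of -0.22. Beside Mos and Bub1b, the cohesin-cutting protease Espl1 (separase), the kinase Plk1 and the anaphase activator Cdc20 fell by 1.96, 1.69 and 1.58 on the log2 scale. The embryo values of Espl1 did not match the annotated length. The cyclin Ccnb1 averaged 491 FPKM in VCD 2-cell embryos and 692 in VCD MII oocytes. Cdc25c, a phosphatase that activates Cdk1, had 27, 37.0, 42.2 and 35.1 FPKM in VCD 2-cell embryos, against 0.822, 1.08, 1.06, 0.885 and 0.849 FPKM in VCD MII oocytes. All embryo libraries were above the oocytes (log2 difference 4.21, SE 0.14). Cdc25c values matched the annotated length in neither stage. Cks2, a Cdk1 subunit, averaged 67.5 FPKM in VCD 2-cell embryos and 9.03 in VCD MII oocytes, and the inhibitory kinase Wee1 averaged 5.84 and 0.791.

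Of 24 genes that act in maternal RNA decay, 14 passed as higher and 8 as lower, with 4 and 3 called, where 52.9% and 24.6% of all tested genes passed. After median-of-ratios scaling 5 passed as higher and 10 as lower, with 2 and 7 called, and after quantile normalization 9 and 10 passed, so the balance of these counts turned with the scaling. Dcp2, the decapping enzyme, had 38.3, 36.9, 41.8 and 41.9 FPKM in VCD 2-cell embryos, against 6.77, 7.63, 7.88, 7.10 and 7.76 FPKM in VCD MII oocytes (log2 difference 2.27, SE 0.10). Its cofactor Dcp1a went the other way, averaging 83.3 FPKM in VCD 2-cell embryos and 389 in VCD MII oocytes, with a length that differs between the tables. Pabpn1l, a poly(A)-binding protein of the egg that works with Btg4, had 3.89, 2.42, 2.89 and 2.36 FPKM in VCD 2-cell embryos, against 41.9, 55.9, 64.9, 85.0 and 104 FPKM in VCD MII oocytes. The stages did not overlap for either decapping gene or for Pabpn1l. Of the CCR4-NOT subunits, Cnot2 averaged 62.9 FPKM in VCD 2-cell embryos and 23.6 in VCD MII oocytes, and Cnot3 averaged 5.58 and 11.5.

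Of 18 genes of stored RNA and translation control, 7 passed as higher and 6 as lower, with 4 called each way. Zar1, which binds stored maternal RNA, had 8.27, 11.5, 6.85 and 12.1 FPKM in VCD 2-cell embryos, against 247, 197, 106, 119 and 102 FPKM in VCD MII oocytes (log2 difference -3.80, SE 0.27). Cpeb1, which controls cytoplasmic polyadenylation, had 20.0, 19.1, 14.7 and 19.5 FPKM in VCD 2-cell embryos, against 198, 230, 196, 201 and 204 FPKM in VCD MII oocytes. Both were low in every embryo library. The Cpeb1 relative Cpeb4, the oocyte cap-binding protein Eif4e1b and the RNA-binding Ybx2 were called higher, with log2 differences of 1.29, 2.23 and 2.09.

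In the subcortical maternal complex and maternal effect list, 11 of 25 genes passed as higher and 11 as lower, with 5 and 8 called. H1foo had 386, 354, 315 and 294 FPKM in VCD 2-cell embryos, against 6721, 6013, 5858, 5917 and 5563 FPKM in VCD MII oocytes (log2 difference -4.16, SE 0.10). Tle6, a scaffold of the complex, had 53.4, 33.8, 19.7 and 46.1 FPKM in VCD 2-cell embryos, against 425, 575, 296, 453 and 699 FPKM in VCD MII oocytes. Its partners Nlrp5 and Padi6 fell by 2.37 and 2.27 on the log2 scale, while Ooep averaged 138 FPKM in VCD 2-cell embryos and 182 in VCD MII oocytes and did not pass as deposited. Dppa3, which protects maternal DNA methylation marks, had 252, 256, 280 and 491 FPKM in VCD 2-cell embryos, against 60.1, 105, 54.3, 72.6 and 200 FPKM in VCD MII oocytes. The stages did not overlap (adjusted p = 0.000397), with embryo replicate 4 and oocyte replicate 5 the highest of their groups. Ctcf, the insulator protein, and Hsf1, the heat shock factor, were called higher, at log2 differences of 1.81 and 1.62. The embryo values of Hsf1 did not match the annotated length.

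Cytosolic ribosomal protein genes had one of the larger list medians. Of 82 listed genes for cytosolic ribosomal proteins, 54 passed the filter on low values, and 44 of these passed as higher and 4 as lower, with 40 called higher and none lower, where 32.5% of all tested genes were called higher. In 15 of the 54 every VCD MII library was below 1 FPKM, so those could pass the filter only through the embryos and the count is a description. The median was 1.68, and it was 1.30 after median-of-ratios scaling and 1.18 after quantile normalization, where 3 were called lower each. Rplp0, of the ribosomal stalk, had 432, 502, 423 and 444 FPKM in VCD 2-cell embryos, against 28, 32.5, 31.9, 30.5 and 30 FPKM in VCD MII oocytes. The groups lay far apart with little spread (log2 difference 3.84, SE 0.09, adjusted p = 9.96e-12). Rps6 had 45.7, 48.4, 52.3 and 67.8 FPKM in VCD 2-cell embryos, against 2.64, 5.99, 3.47, 3.31 and 5.35 FPKM in VCD MII oocytes. Rplp0 and Rps6 share 33.1% and 43.8% of their 50-base words with other transcripts. Rps2, Rpl5, Rpl22 and Rpl13 passed as lower, Rps2 with a log2 difference of -0.74.

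Of 50 ribosome biogenesis genes, 29 passed as higher and 14 as lower, with 21 and 7 called and a median of 0.78, and 11 of the 50 were below 1 FPKM in every VCD MII library. Nop2, which methylates ribosomal RNA, had 18.7, 21, 20.4 and 22 FPKM in VCD 2-cell embryos, against 0.432, 0.296, 0.131, 0.365 and 0.286 FPKM in VCD MII oocytes (log2 difference 4.05, SE 0.12). Nop16 and Nhp2, both nucleolar, had log2 differences of 3.88 and 3.60, with all embryo libraries above all oocyte libraries. The RNA polymerase I factor Rrn3 averaged 80.2 FPKM in VCD 2-cell embryos and 12.3 in VCD MII oocytes. Its embryo values did not match the annotated length. In the other direction, Gnl2, Ftsj3, Utp4 and Dkc1 fell by 2.99, 2.01, 1.96 and 1.69 on the log2 scale. After median-of-ratios scaling the called members of the list were 13 higher and 11 lower.

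Translation initiation factors passed as higher in 21 of 36 and as lower in 5, with 14 and 2 called and a median of 0.75. Eif6, which keeps ribosomal subunits apart, had 29.1, 26.7, 26.3 and 41.3 FPKM in VCD 2-cell embryos, against 5.70, 5.89, 3.20, 6.23 and 5.31 FPKM in VCD MII oocytes. All embryo libraries lay above the oocytes. Eif4e, the cap-binding protein, averaged 176 FPKM in VCD 2-cell embryos and 44.5 in VCD MII oocytes. Eif1a and Eif3h had log2 differences of 2.99 and 2.32. The length of Eif3h differs between the tables, and Eif1a values matched the annotated length in neither stage. Eif5b and Eif4g3 were called lower, at log2 differences of -1.42 and -1.14.

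Splicing genes divided into 15 higher and 12 lower of 35, with 11 and 9 called. Snrpc, a protein of the U1 particle, had 38.8, 35.9, 36 and 53 FPKM in VCD 2-cell embryos, against 0.369, 0.595, 0.526, 0.732 and 0.776 FPKM in VCD MII oocytes. Snrpc values matched the annotated length in neither stage. Prpf6, of the tri-snRNP, had 8.71, 9.32, 4.50 and 8.64 FPKM in VCD 2-cell embryos, against 45.5, 40.9, 51.1, 70.2 and 43.4 FPKM in VCD MII oocytes.

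RNA polymerase II and general transcription factor genes passed as higher in 20 of 42 and as lower in 13, with 12 and 5 called. Gtf2f1, of the initiation factor TFIIF, had 43.1, 39.9, 45.9 and 40.4 FPKM in VCD 2-cell embryos, against 1.51, 2.12, 2.40, 3.83 and 1.88 FPKM in VCD MII oocytes (log2 difference 3.73, SE 0.17). The polymerase subunit Polr2e had 22, 17.1, 15.7 and 19.8 FPKM in VCD 2-cell embryos, against 0.896, 2.25, 1.18, 1.99 and 1.74 FPKM in VCD MII oocytes. Both were higher in every embryo library. The largest subunit, Polr2a, averaged 1.40 FPKM in VCD 2-cell embryos and 1.46 in VCD MII oocytes and did not pass as deposited, but passed as lower after median-of-ratios scaling (-0.35) and quantile normalization (-0.69). Tbp, the TATA-binding protein, averaged 8.12 FPKM in VCD 2-cell embryos and 2.2 in VCD MII oocytes, and Taf8 averaged 16.1 and 104. The embryo values of Tbp and Taf8 did not match the annotated length.

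Of 31 proteasome subunit genes, 17 passed as higher and 8 as lower, with 8 and 4 called, close to the shares of all tested genes (52.9% and 24.6% passed, 32.5% and 12.3% called). Psmc3, an ATPase of the base, averaged 9.17 FPKM in VCD 2-cell embryos and 1.15 in VCD MII oocytes. Psmd1, the largest subunit of the base, had 9.39, 9.03, 7.25 and 9.32 FPKM in VCD 2-cell embryos, against 47.2, 52.4, 58.8, 53.8 and 58.2 FPKM in VCD MII oocytes. The core subunit Psma5 fell by 2.11 on the log2 scale, with 50% of its 50-base words in other transcripts.

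Nuclear genes of the respiratory chain (54 of 74 listed passed the filter) were higher in 28 and lower in 7, with 20 and 4 called and a median of 0.65. The part that passed as higher was close to the 52.9% of all tested genes, and after quantile normalization 16 passed as higher and 15 as lower. Ndufb11, of complex I, had 35.2, 33.5, 36.8 and 62.6 FPKM in VCD 2-cell embryos, against 4.56, 8.94, 3.67, 5.34 and 12.2 FPKM in VCD MII oocytes. Embryo replicate 4 was the highest. Uqcrc2, of complex III, had 5.17, 4.02, 2.72 and 6.63 FPKM in VCD 2-cell embryos, against 41.6, 61.0, 60.1, 55.5 and 76.4 FPKM in VCD MII oocytes. Both genes share 17.5% and 17.6% of their 50-base words with other transcripts.

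Mitochondrially encoded protein genes passed as higher in 11 of 12, with 9 called and none lower, a median of 1.30 and a positive median under each scaling tried. Cytochrome b, mt-Cytb, had 5574, 6888, 9534 and 6835 FPKM in VCD 2-cell embryos, against 2651, 1758, 2169, 1763 and 1423 FPKM in VCD MII oocytes. The stages did not overlap (log2 difference 1.89, SE 0.19, adjusted p = 1.65e-06), and mt-Nd1 showed a log2 difference of 1.87. The gene mt-Co1 averaged 3270 FPKM in VCD 2-cell embryos and 1929 in VCD MII oocytes, and passed as deposited but under none of the 3 other scalings. The gene mt-Nd3 ranged up to 17.2 FPKM in VCD 2-cell embryos and up to 0.702 in VCD MII oocytes, and 98.0% of its 50-base words stand in other transcripts. Mitochondrial transcripts in all held 6.09% ± 1.23 of FPKM in VCD 2-cell embryos and 2.55% ± 0.667 in VCD MII oocytes (SD, n = 4 and 5, two-sided exact permutation p = 0.0159, the smallest this design can give, adjusted p = 0.0212 over 4 library measures).

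Glycolysis and glucose uptake genes passed as higher in 9 of 14 and as lower in 2. Ldha, the lactate dehydrogenase A chain, had 7.76, 9.08, 6.46 and 8.23 FPKM in VCD 2-cell embryos, against 0, 0.404, 0.274, 0.0458 and 0.461 FPKM in VCD MII oocytes. The B chain, Ldhb, was far more abundant and went the other way, with 736, 689, 555 and 649 FPKM in VCD 2-cell embryos, against 1797, 2130, 1076, 1123 and 2232 FPKM in VCD MII oocytes. Neither chain overlapped between the stages. Tpi1 had a log2 difference of 2.93 (SE 0.16), and the glucose transporter Slc2a1 averaged 24.3 FPKM in VCD 2-cell embryos and 8.26 in VCD MII oocytes.

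Glutathione and antioxidant genes passed as higher in 14 of 28 and as lower in 7, with 11 and 4 called. Prdx4, a peroxiredoxin of the secretory pathway, had 13.3, 18.6, 20.4 and 28.4 FPKM in VCD 2-cell embryos, against 0.308, 0.805, 0.0287, 0.288 and 0.58 FPKM in VCD MII oocytes (log2 difference 3.89, SE 0.21). Hmox1, heme oxygenase 1, had 21.7, 19.8, 19.8 and 32.7 FPKM in VCD 2-cell embryos, against 0.513, 0.704, 0.415, 0.693 and 1.29 FPKM in VCD MII oocytes (log2 difference 3.82, SE 0.18). The stages were far apart in both genes, and embryo replicate 4 was the highest in both. Mt1, a metallothionein, averaged 6.51 FPKM in VCD 2-cell embryos and 0.0277 in VCD MII oocytes. Txnrd1, thioredoxin reductase, and Gstm5 fell by 1.74 and 1.55 on the log2 scale.

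Heat shock and unfolded protein genes split into 14 higher and 11 lower of 28. Ddit3, the stress factor also called CHOP, had 12, 16.8, 19 and 21.6 FPKM in VCD 2-cell embryos, against 0.873, 1.62, 1.2, 1.06 and 1.60 FPKM in VCD MII oocytes. Atf4, upstream of it, averaged 243 FPKM in VCD 2-cell embryos and 73.7 in VCD MII oocytes, and Dnajb1 averaged 78.0 and 13.8. The embryo values of Atf4 did not match the annotated length. Pdia6, a disulfide isomerase, had 5.56, 6.59, 4.96 and 7.52 FPKM in VCD 2-cell embryos, against 86.5, 95.8, 82.5, 103 and 107 FPKM in VCD MII oocytes. Ern1 and Atf6, which sense unfolded proteins, fell by 2.89 and 2.73 on the log2 scale. Hsp90aa1 averaged 201 FPKM in VCD 2-cell embryos and 1265 in VCD MII oocytes.

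Genes of p53 and its targets passed as higher in 12 of 22 and as lower in 6, with 11 and 2 called, where 52.9% and 24.6% of all tested genes passed. After quantile normalization 9 passed each way. Sesn2, a stress-induced regulator of growth signalling, had 8.63, 9.25, 9.85 and 9.66 FPKM in VCD 2-cell embryos, against 1.21, 0.931, 0.731, 2.02 and 1.26 FPKM in VCD MII oocytes. Gadd45b and Cdkn1a, which restrain the cell cycle, had log2 differences of 2.2 and 2.13. Cdkn1a values matched the annotated length in neither stage. Trp53 itself averaged 13.6 FPKM in VCD 2-cell embryos and 29.1 in VCD MII oocytes, and its antagonist Mdm2 averaged 52.8 and 104. The repair gene Ddb2 fell by 2.00 on the log2 scale.

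Of 18 listed genes of the Bcl-2 family, 8 passed the filter, 6 of these were called higher and none passed as lower, with a median of 1.77, where 32.5% of all tested genes were called higher. In 3 of the 8 every VCD MII library was below 1 FPKM, so those could pass the filter only through the embryos and the count is a description. After median-of-ratios scaling and after quantile normalization 2 of the 8 passed as lower. Members of opposite known function were among them. Mcl1, which protects cells, had 5.28, 6.15, 8.76 and 8.52 FPKM in VCD 2-cell embryos, against 0.438, 0.646, 0.106, 0.65 and 0.607 FPKM in VCD MII oocytes. Bax, which permeabilizes mitochondria, had 5.89, 3.21, 2.66 and 6.19 FPKM in VCD 2-cell embryos, against 0.222, 0.326, 0.345, 0.737 and 0.813 FPKM in VCD MII oocytes. Bik, a pro-apoptotic member, averaged 40.6 FPKM in VCD 2-cell embryos and 7.04 in VCD MII oocytes, and the protective Bcl2l1 averaged 61.8 and 17.1. Bik values matched the annotated length in neither stage. The far more abundant Bcl2l10 did not pass, as given above.

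DNA methylation genes passed as higher in 4 of 14 and as lower in 6. Dnmt1, the maintenance methyltransferase, had 11.3, 8.89, 7.19 and 9.47 FPKM in VCD 2-cell embryos, against 101, 156, 127, 196 and 177 FPKM in VCD MII oocytes (log2 difference -3.88, SE 0.19). Its cofactor Uhrf1 and the dioxygenase Tet3, which acts on the paternal genome after fertilization, fell by 1.15 and 1.40. All Tet3 values were lower in embryos, at 24.5 to 30.2 FPKM in VCD 2-cell embryos against 67.3 to 82.4 in VCD MII oocytes.

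Histone modifying enzymes passed as higher in 26 of 47 and as lower in 6, with 14 and 3 called, where 52.9% and 24.6% of all tested genes passed and 32.5% and 12.3% were called. After median-of-ratios scaling 14 passed as higher and 19 as lower. The deacetylase Hdac1 had 10.4, 12, 15.5 and 15 FPKM in VCD 2-cell embryos, against 0.753, 0.969, 0.597, 0.748 and 1.2 FPKM in VCD MII oocytes, and 35.5% of its 50-base words stand in other transcripts. Kdm5b, a demethylase of histone H3, had 4.56, 5.71, 6.79 and 7.36 FPKM in VCD 2-cell embryos, against 0.503 to 0.661 in VCD MII oocytes. Suz12, of a Polycomb complex, had 167, 242, 273 and 319 FPKM in VCD 2-cell embryos, against 56.8, 62.5, 50.8, 62.0 and 50.7 FPKM in VCD MII oocytes. In these 3 genes every embryo library lay above every oocyte library. The Suz12 partners Eed and Ezh2 passed with smaller differences of 0.59 and 0.55, which were 0.054 and 0.030 and did not pass after median-of-ratios scaling. Variant histones H2afz and H2afv had log2 differences of 3.03 and 2.97, and H2afx fell by 1.10, with 35.4% of the 50-base words of H2afz in other transcripts.

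Cyclin and replication licensing genes passed as higher in 16 of 32 and as lower in 10, with 6 and 5 called. Ccne1, cyclin E1, had 49.3, 78.7, 86.7 and 61.6 FPKM in VCD 2-cell embryos, against 11.2, 8.80, 9.52, 11.1 and 9.19 FPKM in VCD MII oocytes. Orc1, of the origin recognition complex, had 11.2, 12.5, 11.6 and 12 FPKM in VCD 2-cell embryos, against 54.4, 58.3, 65.3, 62.2 and 65.1 FPKM in VCD MII oocytes. Gins3, of the replicative helicase, was below 1 FPKM in every VCD 2-cell library and at 11.4 to 12.4 in VCD MII oocytes. The helicase subunits Mcm4 and Mcm7 were called lower and Mcm5 higher.

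Pluripotency and early lineage genes (16 of 29 listed passed the filter) were higher in 7 and lower in 7. Sall4, a zinc finger factor of the early embryo, had 35.1, 45.5, 42.4 and 40.6 FPKM in VCD 2-cell embryos, against 251, 275, 217, 229 and 198 FPKM in VCD MII oocytes. Cdh1, E-cadherin, averaged 7.49 FPKM in VCD 2-cell embryos and 65.4 in VCD MII oocytes. Zfp42 and Klf5 were called higher from levels under 1 FPKM in the oocytes, and the embryo values of Klf5 did not match the annotated length. Pou5f1 averaged 10.8 FPKM in VCD 2-cell embryos and 6.69 in VCD MII oocytes and passed as higher as deposited only (adjusted p = 0.0477), under none of the other scalings. Nanog, Sox2, Cdx2 and Eomes averaged below 1 FPKM in both groups.

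Cholesterol synthesis genes passed as higher in 8 of 16 and as lower in 5. Sqle, squalene epoxidase, had 16.7, 23.4, 27.2 and 18 FPKM in VCD 2-cell embryos, against 2.64, 2.28, 2.28, 2.94 and 2.43 FPKM in VCD MII oocytes. The stages did not overlap in Sqle.

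The signs of list medians were as follows under other scalings. Those of the 2-cell stage, ribosomal protein, ribosome biogenesis, translation initiation, nuclear respiratory, mitochondrially encoded, glycolysis, p53, Bcl-2 and maternal RNA decay lists were positive under median-of-ratios scaling, quantile normalization and rescaling to a common sum. Those of the secreted and zona, MII arrest, maternal effect and DNA methylation lists were negative under all 3. Under at least 1 of these scalings the medians of the oocyte transcription factor, stored RNA, splicing, RNA polymerase II, proteasome, antioxidant, heat shock, histone enzyme, histone, cyclin, pluripotency and cholesterol lists were below 0. The counts given for every list are those of the deposited scaling, also where the median stayed positive: translation initiation factors passed as higher in 16 and as lower in 13 after median-of-ratios scaling.

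**Figure D4:**
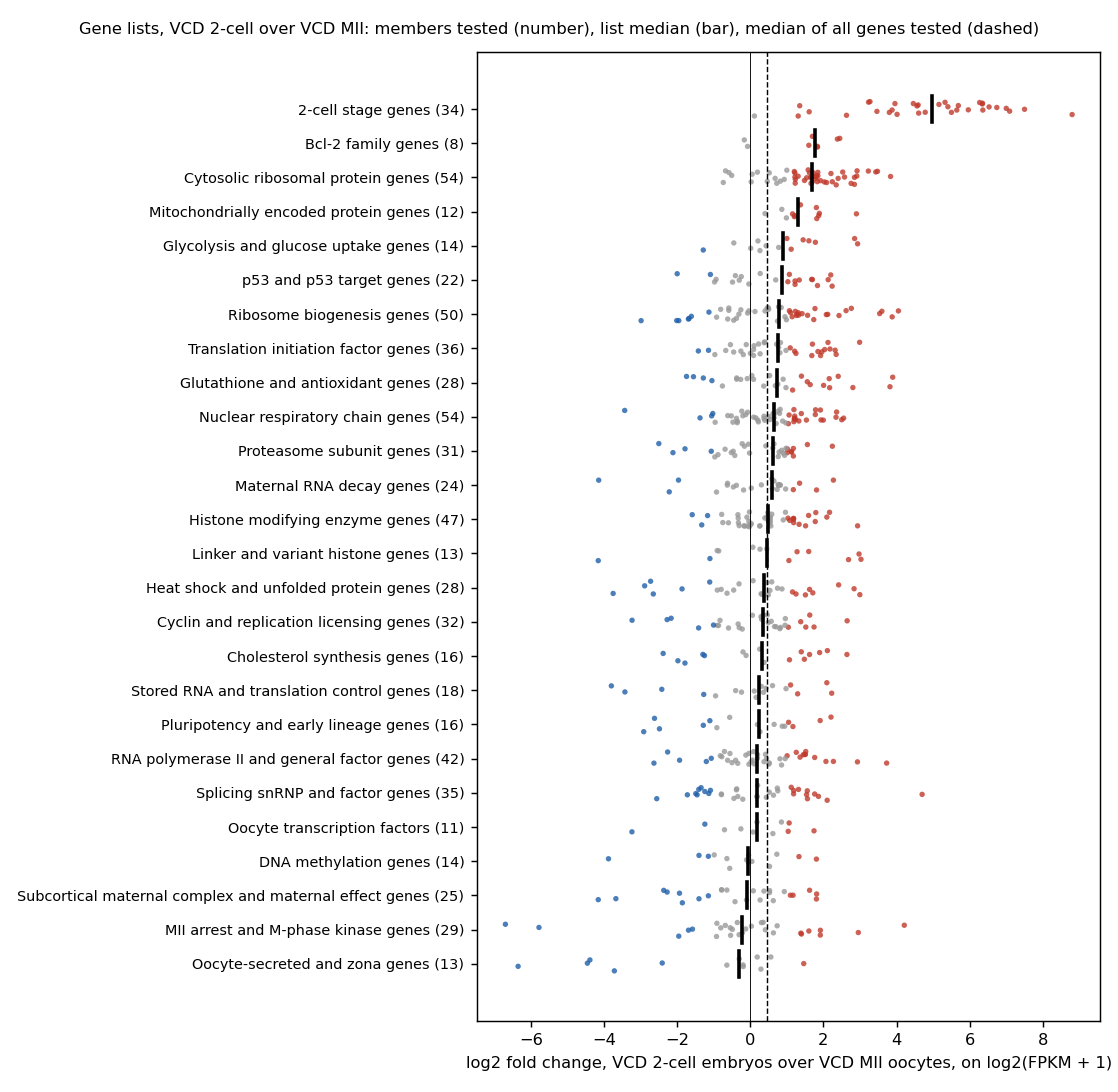
Log2 difference between VCD 2-cell embryos and VCD MII oocytes on the log2(FPKM + 1) scale for the tested members of 26 gene lists, ordered by median (black bar); the number tested stands beside each list. Red and blue points are genes called higher and lower, grey points the rest, and the dashed line is the median of all tested genes, 0.47. The 2-cell stage list has its median at 4.97.

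Markers of other cells were summed in each library. Of 18 cumulus and granulosa markers, the cells that surround the oocyte, all were in the tables, and their summed FPKM was 6.81 to 8.72 in VCD 2-cell embryos and 8.76 to 11.5 in VCD MII oocytes. Foxl2 and Ptx3 were at 0 in every VCD MII library. Of the 18, 3 passed the filter on low values with a median log2 difference of 1.28; the median was -0.32 over 2 markers after median-of-ratios scaling, -1.99 for the 1 marker left after quantile normalization and 0.80 over 6 after rescaling to a common sum. Within this sum Cyp19a1 averaged 2.43 FPKM in VCD 2-cell embryos and 8.35 in VCD MII oocytes, and Tnfaip6 averaged 1.78 and 0.0143. Sperm markers (11 of 14 in the tables) summed to 18.9 to 23.4 FPKM in VCD 2-cell embryos and 16.3 to 20.4 in VCD MII oocytes, most of it Odf2. Blood and immune markers (8 of 10) summed to 4.91 to 10.1 FPKM in VCD 2-cell embryos and 1.07 to 1.72 in VCD MII oocytes, and Lyz2 and Hba-a1 were called higher at means of 3.13 and 1.68 FPKM in VCD 2-cell embryos. The part of these markers in the other results was not tested. Defining oocyte markers (13 of 14) summed to 3921 to 4256 FPKM in VCD 2-cell embryos and 14070 to 17520 in VCD MII oocytes.

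Y-linked transcripts, which only fertilization by a Y-bearing sperm can bring, separated the stages without overlap. The 9 Y-linked genes in the tables summed to 4.13, 7.61, 11.6 and 5.04 FPKM in VCD 2-cell embryos. They were at 0 in all 5 VCD MII libraries, a value also given to genes that the oocyte table does not list. Usp9y, a deubiquitinase, had 1.44, 2.22, 2.77 and 1.56 FPKM in VCD 2-cell embryos and was the single member that passed the filter on low values. Each of the 4 embryo libraries held Y-linked RNA.

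More genes reached 1 FPKM in embryos, with values as deposited. VCD 2-cell libraries had 11370 ± 423 genes at 1 FPKM or more and VCD MII libraries 8591 ± 277 (SD, n = 4 and 5, two-sided exact permutation p = 0.0159, adjusted p = 0.0212). Embryo replicate 4 had the most, 11995, against 11072 to 11253 in the other embryos. Genes that the other table does not list held 2.33% ± 0.469 of FPKM in VCD 2-cell embryos and 0.280% ± 0.0114 in VCD MII oocytes (adjusted p = 0.0212, exact permutation test). These are different genes in each stage, 10403 listed only for embryos and 1333 only for oocytes. The test therefore compares the gene lists of the tables and cannot measure a difference between the stages. The 10 most abundant genes held 17.3% ± 0.436 in VCD 2-cell embryos and 16.3% ± 0.686 in VCD MII oocytes (adjusted p = 0.0317, exact permutation test).

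Called genes differed in type and sequence features, given here as descriptions. Of 8963 protein-coding genes tested, 29.1% were called higher and 13.1% lower, and of 854 pseudogenes 50.4% and 8.90%. Of 2086 genes with predicted or clone names, 49.2% were called higher. The median exon length was 2451 bases in genes called higher, 4183 in genes called lower and 3596 in all tested genes, and within protein-coding genes 3155, 4620 and 4315. On the X chromosome 38.2% of 393 genes were called higher and 6.87% lower. The autosomes ranged from 27.1% higher on chromosome 16 to 38.9% on chromosome 7.

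Promoter windows of the 2-cell stage list were compared with those of all tested genes, with no test. RefSeq windows existed for 19 of the 34 tested members (21 windows). CCAAT was in 71.4% of them, TATAAA in 42.9%, TAATCC in 28.6% and GGGCGG in 9.52%, with both strands searched. Over the windows of all tested genes the shares were 39.4%, 7.91%, 6.13% and 58.9%. Their median CpG count was 2 per 300 bases, against 20 over all tested genes. The Zscan4d window printed above has TATAAA at -65 and CCAAT at -53, and the Usp17lb window has TATAAA at -31. Many members share sequence, so the windows are not independent. In the windows of all genes called higher, TATAAA was in 8.7% and CCAAT in 41.6%.

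The change with VCD was set beside the change with PBS, measured in 4 PBS 2-cell and 4 PBS MII libraries that the VCD comparison does not use but that come from the same 2 tables. With PBS, 3641 of 10814 genes were called higher (33.7%) and 1374 lower (12.7%). Of the genes called higher with VCD, 3202 were also called higher with PBS, which is 90.7% of the VCD calls and 87.9% of the PBS calls. Of those called lower, 1227 were shared, 91.9% of the VCD calls and 89.3% of the PBS calls. No gene was called in opposite directions.

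The difference between the agents was tested directly over all 17 libraries, a contrast in which a shift shared by all libraries of a table cancels. Of 12160 genes, 1 passed (0.00822%), and 417 had an unadjusted p below 0.05, against 608 expected if no gene differed. The median difference over all genes was -0.0039, and for 6275 of the 6776 genes with a group mean of 5 FPKM or more (92.6%) the 95% interval of the difference lay within 2-fold either way. Zfp352 changed by 8.80 with VCD and 8.80 with PBS (difference -0.0030, 95% interval -0.43 to 0.42), and Plat by -6.74 with both.

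The gene that passed was Rnu73b, a small nucleolar RNA. It had 0, 0, 0.748 and 0 FPKM in VCD 2-cell embryos, against 3.59, 3.02, 6.08 and 2.51 FPKM in PBS 2-cell embryos, and was set to 0 in all MII libraries of both agents. The 2-cell libraries of the agents did not overlap, and the log2 difference between the changes was -2.01 (SE 0.27, adjusted p = 0.00719). It is not in the oocyte table, and the call was lost with a pseudocount of 0.1 (adjusted p = 0.141) and on recovered reads with voom (adjusted p = 1). It is 71 bases long, on chromosome 3. Its 2-cell values rest on few recovered reads, 0, 0, 1 and 0 with VCD and 4, 4, 7 and 3 with PBS.

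The next genes by p did not pass. Pms2, a mismatch repair gene, had 3.20, 3.43, 4.22 and 4.18 FPKM in VCD 2-cell embryos, against 0.995, 1.18, 1.10, 1.01 and 1.26 FPKM in VCD MII oocytes, and 2.31, 2.17, 2.48 and 2.26 FPKM in PBS 2-cell embryos, against 1.30, 1.24, 1.55 and 1.67 FPKM in PBS MII oocytes (difference 0.73, 95% interval 0.43 to 1.03, adjusted p = 0.428). H2-Q6, a class I major histocompatibility gene with 35% of its 50-base words in other transcripts, had 2.83, 4.41, 5.98 and 4.52 FPKM in VCD 2-cell embryos, against 1.99, 1.54, 2.19 and 1.73 FPKM in PBS 2-cell embryos (difference 0.97, adjusted p = 0.428). Both were above their PBS counterparts in every 2-cell library. Mitochondrially encoded protein genes had a median change of 1.30 with VCD and 1.84 with PBS, and none passed the test of the difference.

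**Figure D5:**
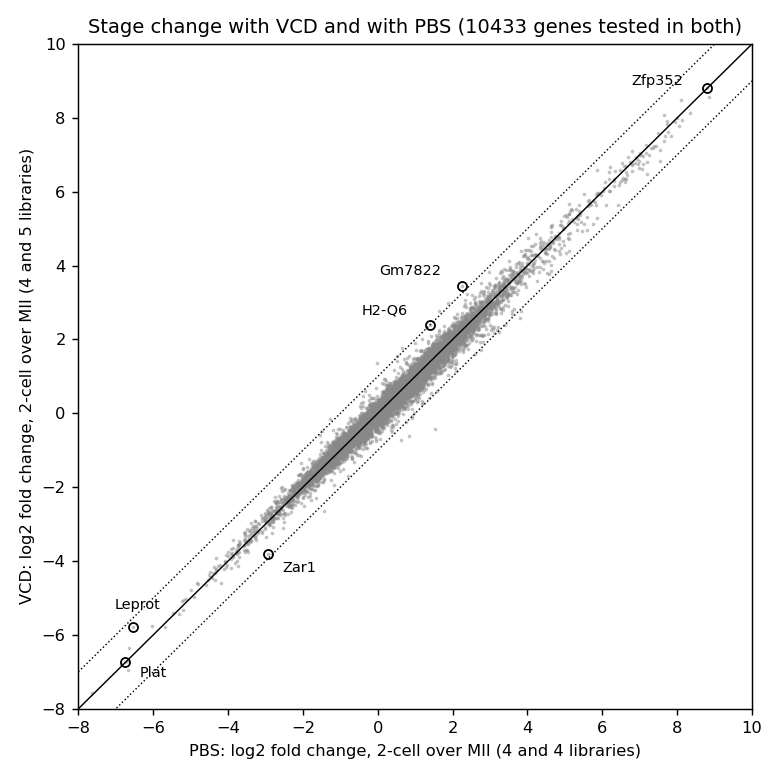
Log2 change from MII to 2-cell with VCD (vertical, 4 and 5 libraries) against PBS (horizontal, 4 and 4 libraries) for 10433 genes tested in both, with the line of equal change and dotted lines 1 log2 unit away. Zfp352 and Plat lie on the line, and Zar1 (-3.80 with VCD, -2.94 with PBS) and Leprot (-5.78 and -6.55) lie off it without passing the test of the difference.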

How the data were processed

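RNA was measured by Smart-seq2 in VCD 2-cell embryos, VCD MII oocytes and the PBS libraries of both stages. The authors deposited FPKM per gene in 2 tables; the submitters' processing notes name Bowtie2 2.2.3, TopHat2 2.0.12 and the build galGal4, a chicken genome, although the gene identifiers are mouse Ensembl ones. The labels do not state the counting tool or annotation. Steps in the FPKM values matched whole reads at GENCODE M21 lengths within 0.01 read for most genes, which gave the depths. Those lengths are the annotated lengths meant above, which values did not match where they fell off whole reads. A length "differs between the tables" where the oocyte values matched and the embryo values did not. Of genes with values in both tables, 969 matched for the oocytes only and 1745 in neither table. An embryo mismatch alone does not show that the tables used different lengths.

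Genes that reached 1 FPKM in 4 or more libraries were tested with limma 3.58.1 (R 4.3.3, trend, no block) on log2(FPKM + 1), with Benjamini-Hochberg adjustment over all genes tested. Summaries used Python 3.11.15, numpy 2.4.6, pandas 2.3.3 and scipy 1.17.1. Fitting was tested on simulated data. The named genes were the 15 largest differences each way whose higher group averaged at least 20 FPKM without overlap, and the 3 largest of each list. The gene that passed the test of the difference between the agents was named as well. Other list members, and genes among the 10 smallest p-values of that difference, were named after their values were seen. Members and lists were chosen with earlier results of these data known. Same-numbered VCD and PBS libraries did not deviate together, so numbers were not used as pairs.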

Additional observations from a re-analysis of the deposited data

Results flagged for a closer look

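The sets of values tested numbered 185, each 1 gene or 1 library measure in 1 group. Of these, 12 held a library far from the rest of its group, where chance flags about 1 in 20 groups. VCD 2-cell replicate 4 accounted for 6 of the 12. In it Snrpc was at 53 FPKM (35.9 to 38.8 in the other embryos), Ndufb11 at 62.6 (33.5 to 36.8), Hmox1 at 32.7 (19.8 to 21.7), Mt1 at 10.6 (4.79 to 5.75), Dppa3 at 491.0 (252 to 280) and Odf2 at 16.6 (19.7 to 20.2).

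In VCD 2-cell replicate 3, Prpf6 was at 4.5 FPKM (8.64 to 9.32 in the others) and Psmd1 at 7.25 (9.03 to 9.39). In VCD 2-cell replicate 2, Fgfr2 was at 1.61 (1.32 to 1.33). Among VCD MII oocytes, Sohlh2 was at 30.7 in replicate 4 (23.9 to 25.3), Cpeb1 at 230.0 in replicate 2 (196 to 204) and H2afv at 1.33 in replicate 3 (2.56 to 3.03).

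The small nucleolar RNA Rnu73b differed in its change between VCD and PBS by -2.01 on the log2(FPKM + 1) scale.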

How the results depend on the processing

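For VCD, a minimum of 10 FPKM gave 2031 genes higher and 1377 lower, with 1292 and 833 at 2-fold, and no filter gave 10098 higher. Median-of-ratios scaling gave 4040 lower, with 2331 higher and 2182 lower at 2-fold. Quantile normalization gave 3663 higher and 4590 lower, with 2130 and 2389 at 2-fold. Rescaling to a common sum, chosen after seeing the data, gave 2088 lower at 2-fold. For PBS, the same settings gave 2205, 1442, 1391 and 831 (10 FPKM), 10313 (no filter), 4336, 2347 and 2272 (median-of-ratios), 4028, 4767, 2192 and 2393 (quantile) and 2137 (common sum). The cause of the shift between scalings was not tested.

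Leaving out 1 library and filtering again gave, for VCD, 3792 to 5685 genes higher and 2507 to 2684 lower, and 1955 to 3604 and 1273 to 1373 at 2-fold. The low counts come from the filter, which still asks for 4 libraries when 3 embryos are left: on the genes of the full set (added after seeing the data) the counts were 5557 to 5707, 2525 to 2706, 3442 to 3607 and 1274 to 1374. For PBS they were 4017 to 5970, 2378 to 2822, 1972 to 3635 and 1148 to 1388 when filtered again, and 5942 to 6081, 2725 to 2831, 3593 to 3659 and 1358 to 1390 on the full set.

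For the difference between the agents, 0 to 1 gene was higher and 0 to 2 lower without 1 library. A pseudocount of 0.1, a minimum of 10 FPKM, only genes in both tables and voom on recovered reads each gave 0 lower; no filter and a common sum each gave 3 higher, the second with 3 at 2-fold. The fit with a replicate block gave 0 higher and 1 lower; the correlations of same-numbered libraries were -0.289 to 0.161. Gm24842 passed without PBS 2-cell replicate 2 (adjusted p = 0.00404, limma) and H2-Q6 without VCD 2-cell replicate 1 (adjusted p = 0.0278, limma).

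Of single genes and list medians for VCD, 4044 kept direction and side of the threshold and 130 list medians moved. Odf2 turned to -0.36 under median-of-ratios scaling and Cd68 to -0.40 under quantile normalization. Stage and table cannot be told apart, 4 and 5 libraries limit the precision, and FPKM cannot show total RNA per cell.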
